A study of Mus musculus with 7 samples.

Results

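Most Shox2 binding sites of the mouse limb bud fell in neither of the comparison lists of this study. Of the 33915 peaks of Shox2 in limb at E12.5 (embryonic day), 23568 (69.5%, 95% Wilson interval 69.0 to 70.0%) shared no base with a Pbx limb peak of the same stage and held no position of the Shox2 palate list of that stage. They are called limb-only sites without Pbx below. The name describes list membership only, and binding below the cutoff of a list would not be seen. Of the remaining peaks, 8218 were limb-only and overlapped Pbx, 1348 held a palate position and had no Pbx, and 781 had both. The 8999 peaks with Pbx, the co-occupied sites, were the same regions as the 8999 of the co-occupancy list of the study. The sites were chosen by their overlaps with these lists, so their number is a description and not a result.

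Shox2 is a homeodomain transcription factor of the early limb and of the palate, and the upper part of the limb skeleton depends on it. Pbx proteins are homeodomain factors of the TALE class, which bind DNA beside other homeodomain proteins and can raise the affinity and specificity of the pair. A transcription factor commonly occupies many enhancers around 1 gene, so binding sites tend to lie in groups, and sites of a factor with and without a given partner can stand side by side in 1 regulatory region.

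The 3 lists came from chromatin immunoprecipitation and sequencing (ChIP-seq) of freshly dissected embryonic tissue, with 1 library each. Both Shox2 libraries were precipitated with an anti-HA antibody from embryos labelled Shox2-HA, in which the Shox2 protein carries an HA tag, from limb or from palate at E12.5. The Pbx library was precipitated from E12.5 limb with an anti-Pbx antibody, and its label gives no genotype. The labels do not say how many embryos went into a library or whether tissue was pooled, and Pbx in palate is not among the libraries. The Shox2 limb peaks had a median width of 261 bp, the 33915 Pbx peaks one of 897 bp, and the 15091 palate entries were positions of 1 bp. The Shox2 limb and Pbx limb lists held the same number of peaks, 33915 each, and the sources do not say why. Which sites count as without Pbx depends on where the Pbx list ends. The files give no height, score or read count, so depth is unknown, no value below has a replicate error, and no test between conditions was possible. Intervals on shares are Wilson intervals over peaks, and those on medians come from order statistics over peaks. Both kinds treat neighbouring peaks as independent and are therefore too narrow.

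The first question was how far these sites lay from the nearest co-occupied site. The median distance between centres was 74.8 kb (95% interval from order statistics 72.7 to 76.8 kb; quartiles 23.6 and 205.0 kb). Within 10 kb of a co-occupied site lay 3075 of the limb-only sites without Pbx (13.0%, interval 12.6 to 13.48%), and within 100 kb lay 13537 (57.4%). At the far end, 657 sites (2.79%) had no co-occupied site within 1 Mb, the farthest being 7.68 Mb away. Most of these sites thus had a co-occupied site within 100 kb, at a median distance well beyond their own width. Much of this was not particular to them. Of the Pbx limb peaks without Shox2, 47.8% had a co-occupied site within 100 kb, and of the palate positions outside limb Shox2 peaks, 50.6%. Random positions were not measured.

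Sites bound in both tissues but not on Pbx, which met the same rule on Pbx, lay somewhat nearer to co-occupied sites, with a median of 56.6 kb (interval 50.8 to 62.3 kb). The median distance was larger for the limb-only sites on 16 of 20 chromosomes and in 9 of 10 deciles of the list in file order. The shares within 10 kb were 13.0% for limb-only sites and 14.6% for those of both tissues (interval 12.8 to 16.6%), and these intervals overlapped. Between 10 and 100 kb were 44.4% of limb-only sites and 49.4% of sites of both tissues.

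Co-occupied sites lay closer to each other, and less so once neighbours on the same Pbx peak were left out. For a co-occupied site the next co-occupied site was at a median of 27.5 kb, and 35.6% had one within 10 kb. Of them, 2033 (22.6%) shared their Pbx peak with another co-occupied Shox2 peak, a placement the rule denies to a site without Pbx. With neighbours on the same Pbx peak left out, the median was 47.8 kb and the share within 10 kb was 17.7%. The share within 1 kb fell from 21.1% to 0.511%, against 1.24% of the limb-only sites without Pbx. The share between 1 and 10 kb was 17.2% for co-occupied sites counted in this way and 11.8% for limb-only sites without Pbx.

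Sites of the other lists gave a further measure of distance. The 25916 Pbx limb peaks without Shox2 lay at a median of 109.6 kb from a co-occupied site, with 9.58% within 10 kb. The 12938 palate positions outside limb Shox2 peaks lay at a median of 97.5 kb, with 10.4% within 10 kb. By the median and by the share within 10 kb, limb-only Shox2 sites without Pbx stood between these lists and the co-occupied sites themselves. Within 1 kb the order was another, with 2.33% of the palate positions and 0.262% of the Pbx peaks. Co-occupied sites belong to the limb Shox2 list and lie on peaks of the Pbx list, so these distances are not independent of the lists.

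**Figure D1:**
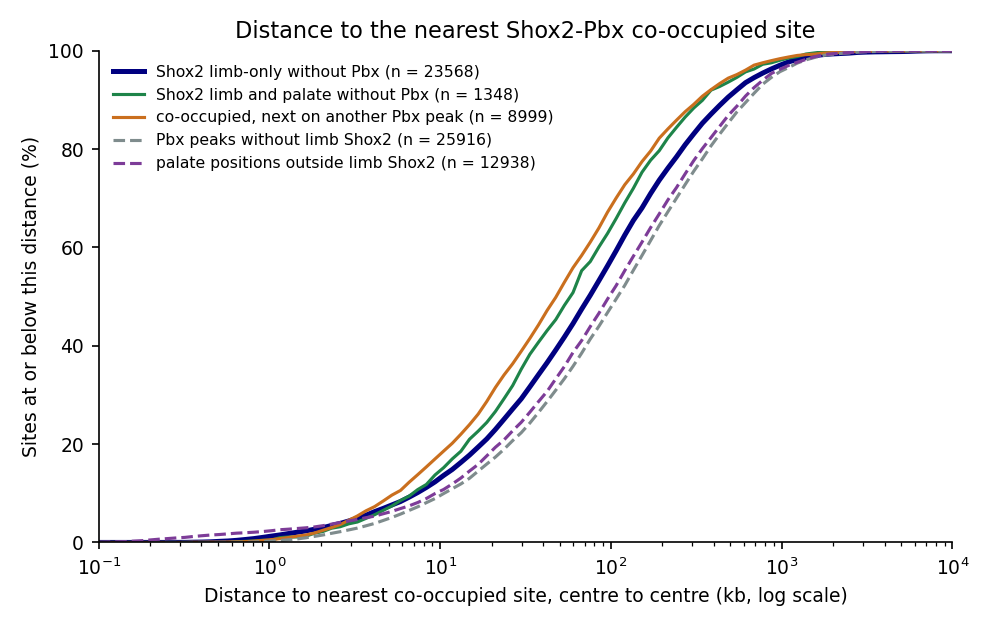
Cumulative percentage of sites (vertical axis) at or below a distance in kb to the nearest co-occupied site (horizontal axis, log scale) for 5 sets of sites; n is the number of sites in each set. The curve of the limb-only sites without Pbx reaches 13.0% at 10 kb and 57.4% at 100 kb and runs between those of Shox2 sites of both tissues and of the palate positions over most of the range.

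Wider limb-only sites lay somewhat nearer to co-occupied sites. In the narrowest decile of Shox2 limb peaks, 170 to 174 bp, their median distance was 84.1 kb, and in the widest, 533 bp and more, it was 59.8 kb. The shares within 10 kb in these deciles were 12.2% and 13.2%. The 3075 limb-only sites within 10 kb had a median width of 248 bp, and the 657 beyond 1 Mb had one of 240 bp. The next Shox2 limb peak of any class was at a median of 2.72 kb in the first of these groups and 43.7 kb in the second, and the nearest Pbx peak edge at 3.19 kb and 199.3 kb. A co-occupied site is itself a Shox2 limb peak on a Pbx peak, so the grouping had to give small values in the near group. In the first 50% of the list stood 42.6% of the near and 41.7% of the far sites. Down the file, the share of limb-only sites within 10 kb of a co-occupied site moved only from 12.3% to 14.0% between deciles, with no steady trend. Their median distance moved more, from 65.5 kb in the first decile to 83.6 kb in the ninth, and was 67.3 kb in the last.

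The limits of the rule cut through a continuous range of gaps. Just inside it, 143 limb-only sites ended 1 to 100 bp from the edge of a Pbx peak, and 1 abutted such a peak. Just outside it, 160 Shox2 limb peaks shared 1 to 100 bp with a Pbx peak, whereas 7870 of the 8999 co-occupied peaks lay wholly inside the Pbx peak. The first group had a median width of 236 bp and the second one of 217.5 bp. On the palate side, 241 limb-only sites had a palate position 1 to 100 bp beyond their edge. Limb-only sites so close to the limits were few beside the 23568. Outside the palate limit this was otherwise. Of the peaks with a palate position, 1348 without Pbx and 781 with Pbx, 1062 held it within 100 bp of an edge, which a narrow peak cannot avoid.

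Gaps to both comparison lists were nevertheless most frequent at the shortest distances. Between 0 and 250 bp from the edge of a Pbx peak lay 354 limb-only sites. The bins of 250 bp between 5 and 10 kb held 128.9 sites on average (104 to 152), so the first bin held 2.75 times as many. For palate positions the first bin held 451 sites and the bins between 5 and 10 kb held 76.6 on average (61 to 92), a ratio of 5.89. Near Pbx edges the bins between 1 and 2 kb held 187 to 233 sites, also above those between 5 and 10 kb. Near palate positions the counts fell to 112 in the fourth bin. They were 102 to 107 in the bins between 1 and 2 kb, still above those between 5 and 10 kb. In bins of equal width, gaps to the nearest entry grow rarer with distance for scattered sites too. The size of that part was not measured. In all, 642 sites (2.72%) lay within 500 bp of a Pbx peak and 673 (2.86%) within 500 bp of a palate position.

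**Figure D2:**
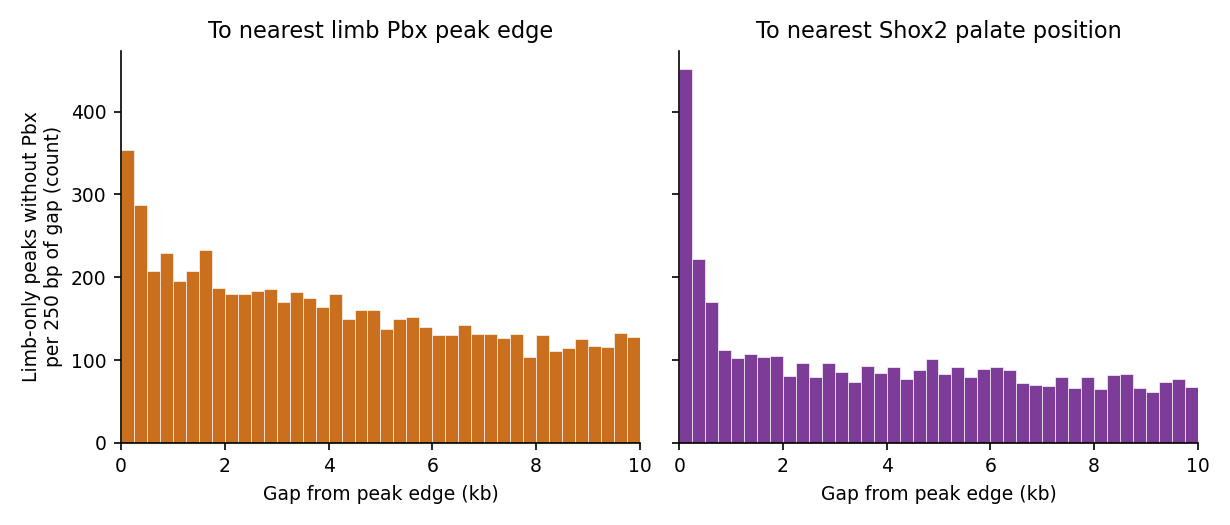
Number of limb-only Shox2 sites without Pbx (vertical axis) in bins of 250 bp of the gap, in kb, between the peak edge and the nearest limb Pbx peak edge (left) or the nearest Shox2 palate position (right). The first bins hold 354 and 451 sites, and the counts between 5 and 10 kb stay between 104 and 152 on the left and between 61 and 92 on the right.

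Farther out, the gaps to Pbx peaks depend on how dense the Pbx list is, and no random positions were measured for comparison. A Pbx peak lay within 10 kb of 6550 limb-only sites without Pbx (27.8%). For 3375 of these (51.5%) no co-occupied peak lay within 10 kb, edge to edge. The median gap to a Pbx peak was 26.1 kb, and 4046 sites (17.2%) had none within 100 kb. The median gap to a palate position was 58.5 kb, and 36.2% had none within 100 kb. The palate list has fewer entries than the Pbx list, so these gaps are not comparable with each other.

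The second question was how the sites were grouped along the chromosomes. Shox2 limb peaks of all classes were joined into chains wherever neighbouring centres lay 10 kb apart or less. Of the limb-only sites without Pbx, 12856 (54.5%) stood alone, 5684 (24.1%) were in chains of 2, and 5028 (21.3%, interval 20.8 to 21.9%) in chains of 3 or more. Among co-occupied sites 28.9% (interval 28.0 to 29.8%) were in chains of 3 or more, and among sites of both tissues without Pbx 23.8% (interval 21.6 to 26.2%). The next Shox2 limb peak was at a median of 12.4 kb from a limb-only site without Pbx. It was at 10.2 kb from a site of both tissues without Pbx and at 7.57 kb from a co-occupied site. Of the co-occupied sites, 22.6% shared their Pbx peak with another, a placement the rule denies to sites without Pbx. Such neighbours were not left out here, so these chain shares and spacings differ in part by the rule.

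Larger chains held relatively fewer limb-only sites without Pbx. They made up 73.2% of lone peaks, 67.6% of peaks in chains of 2 and 65.5% of peaks in chains of 3. In the 9 chains of 11 or more peaks they were 63 of 119 peaks (52.9%), and 53 of these 119 were co-occupied. Co-occupied neighbours on the same Pbx peak were counted here too. Of the 2142 chains of 3 or more peaks, 1325 (61.9%) held a co-occupied peak, and a larger chain has more chances to hold one. Of the 5028 limb-only sites in such chains, 2434 (48.4%) shared the chain with a co-occupied peak.

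Chains made of limb-only sites without Pbx alone numbered 664, or 31.0% of the chains of 3 or more, and held 2232 sites. Limb-only sites without Pbx were 69.5% of all Shox2 limb peaks, so their number alone gives such chains, less often the larger the chain. Whether the counts depart from that was not tested. Of the 664 chains, 55 had 5 or more peaks, out of 344 chains of that size. The largest was on chromosome 9, at chr9:75846624-75886345, with 12 sites over 39.7 kb and no Pbx peak or palate position in its span. Its centre lay 49.3 kb from a co-occupied site. The next, at chr12:15587507-15614027, had 9 sites over 26.5 kb, again with no Pbx peak and no palate position.

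Chains of 7 such sites stood at chr10:38285943-38296255 (10.3 kb, with 1 palate position between its peaks), chr10:45579905-45596666 (16.8 kb) and chr15:51135479-51168305 (32.8 kb). None of these 3 had a Pbx peak in its span, and their centres were 104.7 to 127.5 kb from a co-occupied site. The highest line that any of the 5 chains reached was 1640 of 33915, on chromosome 15, and the median lines of the chains ran from 9228 to 21904. All coordinates are in the mouse build mm9, and the genes at these places are not given, since no mm9 annotation was used here.

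**Figure D3:**
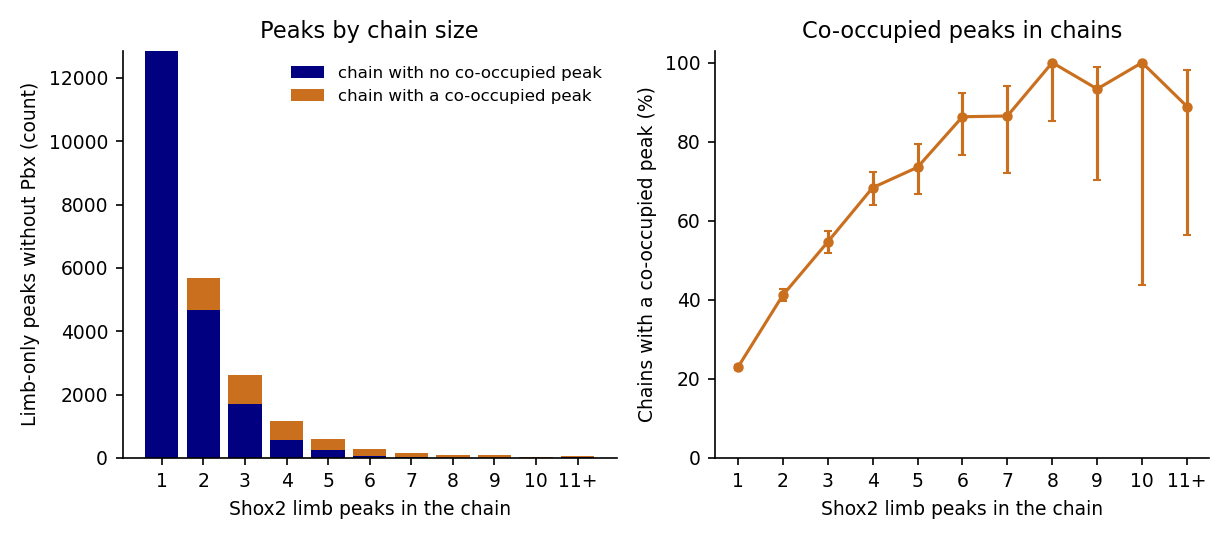
Left, number of limb-only Shox2 sites without Pbx (vertical axis) by the number of Shox2 limb peaks in their chain (horizontal axis; 1 means a lone peak), divided into chains with and without a co-occupied peak. Right, percentage of chains of each size that hold a co-occupied peak, with 95% Wilson intervals: it is 22.9% for lone peaks and 54.6% for chains of 3.

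The class of the nearest Shox2 neighbour differed between sites with and without Pbx. The nearest other Shox2 limb peak was co-occupied for 21.3% (interval 20.7 to 21.8%) of limb-only sites without Pbx, for 23.6% (interval 21.4 to 25.9%) of sites of both tissues without Pbx and for 45.8% of co-occupied sites. Where that neighbour was within 10 kb, the shares were 19.5%, 19.4% and 58.9%, and the last includes neighbours on the same Pbx peak. Where it was farther than 10 kb they were 22.7%, 27.7% and 29.6%. For limb-only sites without Pbx the share was thus no higher at the shorter range. The rule has a part in this, since a Shox2 peak on the same Pbx peak as a co-occupied one is itself co-occupied. That part was not measured. Over the whole Shox2 limb list the nearest neighbour was co-occupied for 27.9% of peaks, and 26.5% of the peaks were co-occupied.

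Part of the chaining came from peaks at very short spacing. No 2 Shox2 limb peaks were closer than 50 bp, and 2997 limb-only sites without Pbx (12.7%) had another Shox2 limb peak within 500 bp, as had 22.5% of co-occupied sites. Only 215 limb-only sites (0.912%) had a co-occupied peak within that gap. Shox2 limb peaks up to 500 bp apart were also joined before the classes were drawn. The share of limb-only sites without Pbx in chains of 3 or more then fell from 21.3% to 15.4%. The share of co-occupied sites after this joining is not given, so the classes are not compared in this way. Whether such neighbours are separate sites or parts of 1 enriched region was not tested.

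In windows of 1 Mb, limb-only sites without Pbx were found in more windows than the co-occupied ones, which are fewer in number. At least 1 limb-only site without Pbx was found in 2381 of the 2504 windows with any peak of the lists (95.1%), and a co-occupied site in 1955 (78.1%). The 125 windows richest in each class held 16.2% of the limb-only sites without Pbx and 24.0% of the co-occupied sites. The smaller number of co-occupied sites by itself makes their counts per window more uneven, and a difference in spread beyond that was not tested. In denser windows the share of limb-only sites without Pbx was lower. They were 72.0% of the Shox2 limb peaks in windows with 1 to 5 such peaks. In windows with 41 or more they were 62.1%, and 33.2% were co-occupied.

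Limb-only sites without Pbx were most numerous at 85 to 86 Mb of chromosome 4, with 52 of 65 Shox2 limb peaks, at 39 to 40 Mb of chromosome 3, with 51 of 62, and at 66 to 67 Mb of chromosome 3, with 51 of 93. The first 2 had 13 and 9 co-occupied sites and the third had 35. The stretch at 54 to 55 Mb of chromosome 18 followed with 45 of 70. Counts of 43 were found at 147 to 148 Mb of chromosome 3, at 13 to 14 Mb of chromosome 4 and at 84 to 85 Mb of chromosome 9. Counts of 40 were found at 165 to 166 Mb of chromosome 1, at 34 to 35 Mb of chromosome 12, at 55 to 56 Mb of chromosome 18 and at 13 to 14 Mb of chromosome 5. All 11 windows also held co-occupied sites, from 8 to 35, and Pbx peaks, from 13 to 37.

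No co-occupied site was found in 549 of the windows. These held 2174 limb-only sites without Pbx (9.22%), and 46 of them had 10 or more Shox2 limb peaks, out of 1358 windows that dense. At 41 to 42 Mb of chromosome 16 and at 136 to 137 Mb of chromosome 2 there were 21 limb-only sites each, which were all the Shox2 limb peaks there, with 2 and 4 Pbx peaks and 5 palate positions each. There were 20 limb-only sites at 51 to 52 Mb of chromosome 16, 19 at 80 to 81 Mb of chromosome 1, and 18 each at 46 to 47 Mb of chromosome 12 and at 4 to 5 Mb of chromosome 4, with 2, 7, 3 and 1 Pbx peaks.

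The third question was how these sites differed in width. Their median width was 242 bp (quartiles 192 and 334 bp), against 309 bp for sites of both tissues without Pbx and 326 bp for co-occupied sites. No Shox2 limb peak was narrower than 170 bp, and 1945 limb-only sites without Pbx (8.25%) had exactly that width, as had 3.94% of co-occupied sites. A wider peak meets other lists more often, so width is tied to the rule. At the same place in the file the gap in width was smaller. In the first decile the medians were 460 bp for limb-only sites without Pbx and 563 bp for co-occupied sites, and in the last decile they were 203 and 212 bp. The limb-only sites had the smaller median in 10 of 10 deciles and on 20 of 20 chromosomes.

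The 5 widest sites lay 5.35 to 225.3 kb from the nearest Pbx peak edge. The widest, at chr16:65513688-65515462, spanned 1775 bp and lay 42.2 kb from the nearest Pbx peak edge. The next, at chr13:4969723-4971443, spanned 1721 bp, with Pbx 73.4 kb away. It was followed by chr4:93814896-93816469 with 1574 bp, 711.7 kb from a co-occupied site, chr3:55283272-55284810 with 1539 bp and chr3:25143326-25144799 with 1474 bp. Of these 5, the one of 1539 bp came nearest to Pbx, with a gap of 5.35 kb, and to a palate position, with a gap of 6.00 kb. They stood at lines 648 to 6946 of the file.

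The fourth question was where the sites stood in the file, whose order is a possible ranking that the files do not explain. Of the limb-only sites without Pbx, 43.4% (interval 42.8 to 44.0%) stood in the first 50% of the lines, against 63.6% of sites of both tissues without Pbx and 65.2% of co-occupied sites. None of the first 10 lines, 12 of the first 100 and 262 of the first 1000 were limb-only sites without Pbx. Their share rose from 38.1% of the first decile to 82.3% of the ninth and was 79.0% in the last. The share in the first 50% was below that of co-occupied sites on 20 of 20 chromosomes. In the widest decile of peaks, 533 bp and more, 40.5% were limb-only without Pbx, and in the narrowest, 170 to 174 bp, 82.4% were.

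The first limb-only site without Pbx stood on line 30, at chr7:98674503-98675161, with a width of 659 bp and the nearest co-occupied site 599.7 kb away. The others of the first 5 were chr6:111834038-111834413 on line 34, chr1:45732557-45733100 on line 42, chr18:63344482-63345150 on line 45 and chr3:6382210-6382798 on line 48. Their distances to a co-occupied site were 167.8, 4.40, 16.3 and 24.5 kb. Their nearest Pbx peak edges were 3.21 to 545.9 kb away and their nearest palate positions 83.1 to 261.4 kb away.

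**Figure D4:**
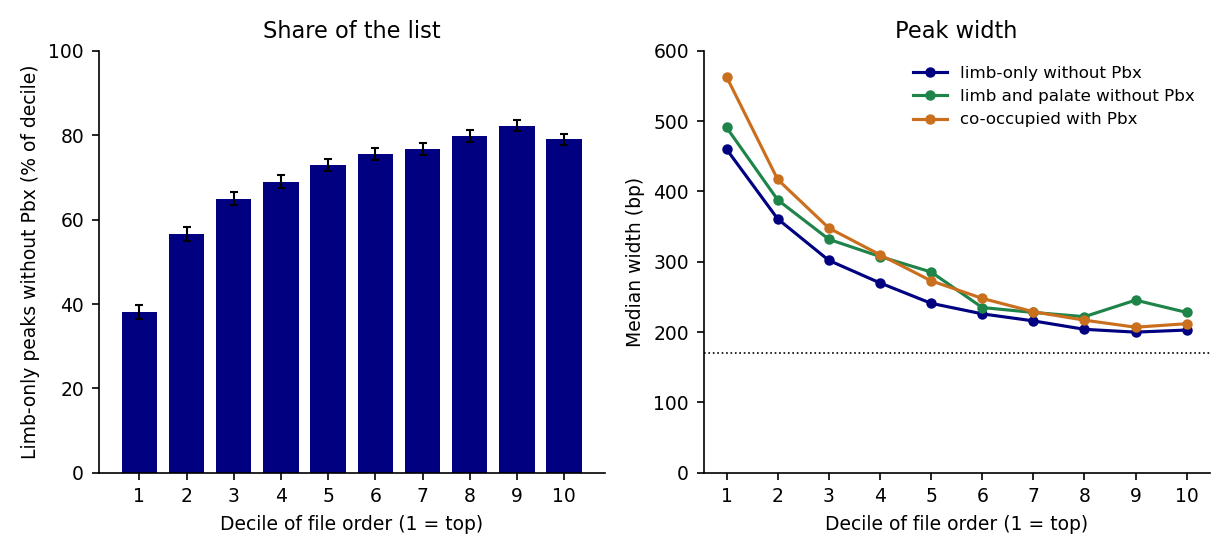
Left, percentage of each decile of the Shox2 limb file that were limb-only sites without Pbx, with 95% Wilson intervals (38.1% in the first decile, 82.3% in the ninth). Right, median width in bp by decile for 3 classes of Shox2 limb peaks, with a dotted line at the smallest width of 170 bp; the limb-only sites without Pbx have the lowest median in each decile.

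The lines of the file also fell into stretches in genome order. Down the Shox2 limb file, consecutive lines often ran upward through the chromosomes, sorted by name, and then started again, as a sort by a value with many ties would leave them; that value is not in the file. There were 2628 such runs, the longest of 1184 lines (lines 20630 to 21813, on all 20 chromosomes), and 56 runs of 100 lines or more held 15196 peaks (44.8%). The palate file had runs of up to 179 lines, with 13.6% of its lines in runs of 100 or more, and in the Pbx file the longest run was of 56 lines. These runs were examined after the data were seen.

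Limb-only sites without Pbx were most frequent in the long runs. In the second 50% of the file they were 81.9% (interval 81.1 to 82.7%) of the 10108 peaks in runs of 100 lines or more and 72.6% (interval 70.4 to 74.7%) of the 1662 peaks in runs of under 10 lines. The share was higher in the long runs in each of deciles 5 to 10, where it ran from 78.0 to 85.8%, against 62.5 to 77.6% in the short runs. Earlier deciles are not given. In runs of 10 to 99 lines it was 74.2% of the 5188 peaks of the second 50%. There it was below the short runs in decile 7 (70.4 against 71.6%) and decile 9 (72.1 against 77.6%). In deciles 5, 6, 8 and 10 it was above them, so the share did not rise steadily with run length in every decile. Width did not differ in the same way: in the second 50% of the file the median was 208 bp for limb-only sites in long runs and 205 bp for those in short runs.

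The limb-only sites of the long runs were also more scattered. In the second 50% of the file their next Shox2 limb peak was at a median of 14.9 kb, against 6.76 kb in short runs, and the nearest co-occupied site at 90.1 against 43.8 kb. A co-occupied site lay within 10 kb of 11.4% of them and of 21.8% of those in short runs. The nearest Pbx edge was at a median of 31.3 and 15.4 kb. Within the same part of the file, and at like median widths, sites thus differed in their surroundings between the kinds of run. The part of background signal or local read depth in this was not tested, since the files hold neither.

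**Figure D5:**
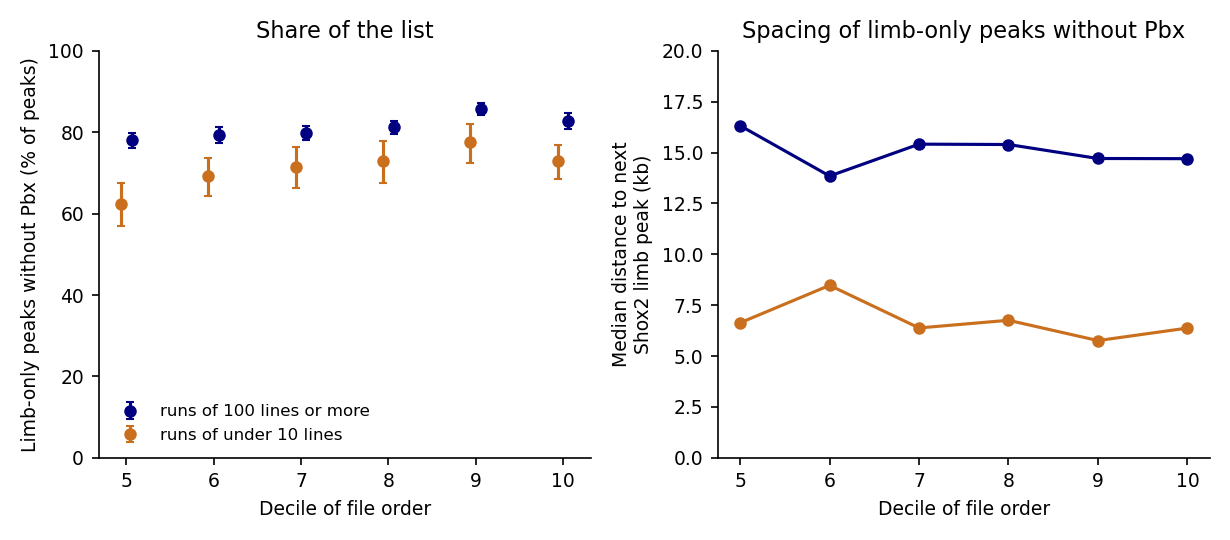
Left, percentage of Shox2 limb peaks that were limb-only sites without Pbx (vertical axis, with 95% Wilson intervals) in runs of 100 lines or more and of under 10 lines, by decile 5 to 10 of the file. Right, median distance in kb from these sites to the next Shox2 limb peak, which is 13.8 to 16.3 kb in long runs and 5.76 to 8.47 kb in short runs.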

How the data were processed

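The authors deposited peak lists with a sequence name, a start and an end, and no score. The submitters' processing notes name Bowtie, MACS2 and the build mm9, with no version; the settings and the rule that ended the lists are not given in these sources. Sequence names of the form chr9_random fit mm9. Read depth is therefore unknown. A genome or annotation of mm9 was not used here, so no gene or sequence is given and coordinates were not converted. The other 4 of the 7 libraries, the controls among them, were not analysed here.

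Peaks were classed by overlap of at least 1 bp. Distances are between centres and gaps between edges. Chains, windows and the alternatives use the settings named beside each value. Regions named are the 10 windows richest in sites and the 5 richest without a co-occupied site, each with 1 more window that tied with the last, the 5 largest chains of such sites alone, the 5 widest sites and the first 5 in the file. The sites, lists and measures were chosen with earlier results of these data known. The interval code was tested on simulated intervals, and all 8 checks returned the planted values. Python 3.11.15, NumPy 2.4.6, pandas 2.3.3, SciPy 1.17.1 and matplotlib 3.10.9 were used.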

Additional observations from a re-analysis of the deposited data

How the results depend on the processing

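None of the 7 measures has a test. Of 54 values under alternatives, 20 stayed inside the interval of the reported value. Autosomes alone moved no measure out of it. With every Shox2 and Pbx peak set to 200 bp around its centre for the Pbx overlap alone, 78.8% of the list was limb-only without Pbx. The palate overlap and the width given here kept the full peaks. The median distance to a co-occupied site was then 94.7 kb, 11.9% lay within 10 kb and 23.2% were in chains of 3 or more. The median width was 247 bp, 44.9% stood in the first 50% of the file and 17.0% in the 5% of windows richest in them. With Pbx peaks extended by 500 bp, the share of the list was 67.6%, 12.0% lay within 10 kb and 20.8% in such chains. With palate positions extended by 250 bp, the share of the list was 68.2%. The first 50% of the list in file order gave 60.3% of the list, 101 kb, 9.88% within 10 kb, 9.25% in chains, 305 bp and 18.0% in the richest windows. The widest 50% gave 60.4%, 97.0 kb, 10.5%, 9.98% in chains, 64.1% in the first 50% of the file and 19.03% in the richest windows. Both cuts leave fewer peaks, which lengthens distances and shortens chains by construction. A limit of 5 kb or 20 kb in place of 10 kb gave 7.41% or 22.1% near a co-occupied site, and 11.04% or 38.7% in chains. Windows of 500 kb put 18.7% of sites in the richest 5%. Joining Shox2 limb peaks over gaps of up to 500 bp, added after the data were seen, left 31186 peaks and gave 78.0 kb, 12.0% within 10 kb, 15.4% in chains, 250 bp, 42.7% in the first 50% of the file and 15.6% in the richest windows. No paired analysis was possible because every group is 1 library, and leaving out a library would leave none. Without read depth, a site not listed may be one that fell under the cutoff.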

Other observations

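The X chromosome held few limb-only sites without Pbx, but a large share of the most remote ones. It had 563 of the 23568 (2.39%), against 1.40% of co-occupied sites, and 79.9% of its Shox2 limb peaks were limb-only without Pbx, above the 63.5 to 72.0% of the autosomes. The median distance to a co-occupied site was 335.4 kb on X and 61.0 to 98.5 kb on the autosomes, and X held 182 of the 657 sites (27.7%) with no co-occupied site within 1 Mb. X had 126 co-occupied sites and 389 Pbx peaks in all, and distances grow where the list measured against is sparse.

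Some limb-only sites stood far from any other entry of the 3 lists. No other Shox2 limb peak, Pbx peak or palate position lay within 100 kb of 621 of them (2.63%), of which 114 (18.4%) were on X. Their median width was 237 bp, 10.9% had the smallest width of 170 bp, and 43.0% stood in the first 50% of the file, close to the 43.4% of all limb-only sites without Pbx. Remote sites were therefore not gathered at the end of the file. With Pbx left aside, 4.58% of limb-only sites without Pbx and 2.27% of co-occupied sites had no Shox2 limb peak or palate position within 100 kb.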
